A study of Mus musculus with 6 samples.

Results

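The 9 genes described here belong to the renin-angiotensin system, the hormone pathway that makes the peptide angiotensin II from a secreted precursor and passes its signal to cell-surface receptors. They were chosen by name from the pathway (Agt, Ace, Enpep, Agtr1a, Agtr1b, Agtr2, Mas1, Lnpep and Atp6ap2), with earlier results of the same comparison known, so their values below describe these libraries and are not independent evidence. The deposited count table holds all 9 among its 54532 genes, and 6 of the 9 had enough counts to enter the test. The RNA came from cultured mesenchymal stromal cells (MSCs, plastic-adherent precursors of bone, cartilage and fat cells) of mouse alveolar bone, the part of the jaw that holds the teeth. There were 3 libraries from wild-type (WT) mice and 3 from Ccrl2-KO (KO) mice, which lack the atypical chemerin receptor gene Ccrl2. Both groups are described as inflamed with TNFα and induced to form bone, and age, strain and knockout allele are not stated. Each count column is named with Ctrl, a word no label explains, so whether these 6 libraries were treated with TNFα is uncertain. The labels call the replicates biological but do not tell whether 1 mouse stands behind each, so the p-values may measure only the spread between cultures.

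In this pathway the enzyme renin cuts angiotensinogen, the product of Agt, and angiotensin-converting enzyme, the product of Ace, trims the released peptide to angiotensin II. The type 1 receptors (Agtr1a and Agtr1b in rodents, a single gene in humans) carry the pressor and growth effects, while the type 2 receptor (Agtr2) often opposes them and is best known from fetal mesenchyme, where it is abundant before birth. Further peptidases shorten angiotensin II to fragments with receptors or binding proteins of their own.

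Total counts lay between 16114974 and 18616433 per library, so the limit that a count of 0 allows (3 counts) corresponds to 0.161 to 0.186 counts per 1000000 counts of the library (CPM). These floors cover counting error only. Ccrl2 itself had 7 counts over the WT libraries and 0 over the KO libraries, too few to check the genotype labels. KO replicate 2 stood apart, with 16428 genes counted against 18928 to 19372 in the other libraries. Values without it are given below for Agtr2, Agt, Ace, Enpep and Atp6ap2 and for some lists. Most other values are given with it only, also for genes where it was the lowest KO library, such as Anpep, Zbtb16, Kdr and Hsd11b2. Of 13705 tested genes, 366 (2.67%) passed the threshold of 0.05 for the Benjamini-Hochberg adjusted p of edgeR's quasi-likelihood test ("called" below), and 316 (2.31%) were called lower in KO. Of the markers of mesenchymal stromal cells, all 8 were tested, their median log2 fold change was -0.02, and Thy1 was called (-0.81 ± 0.10, SE, adjusted p = 0.00141, edgeR). DESeq2 called 2 of the 8 and limma-voom 1, and Pdgfra was at -0.44 ± 0.11 (adjusted p = 0.0799, edgeR). Epithelial markers summed to 0.0537 to 0.555 CPM per library and mast cell markers to 0 to 0.232 CPM. Neuronal and glial markers summed to 40.1 to 55.8 CPM, most of it from Tubb3 (566 to 891 counts per library), and 0 of 4 tested were called by edgeR, DESeq2 or limma-voom (2 had an unadjusted p under 0.05 with edgeR). Of 5 smooth muscle markers 0 were called with edgeR, 1 with DESeq2 and 0 with limma-voom (2 had an unadjusted p under 0.05 with edgeR), and they summed to 4344 to 5230 CPM in WT and 6119 to 7320 CPM in KO. Most of that sum came from Acta2, at 3902 to 4760 CPM in WT and 5615 to 6878 CPM in KO. The log2 fold changes were 0.48 for Acta2, 0.41 for Tagln, 0.22 for Cnn1, 0.03 for Smtn and -0.16 for Myh11.

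Agtr2 fell in the KO libraries and was the single called member. It encodes the angiotensin II type 2 receptor, lies on chromosome X (ENSMUSG00000068122, 21484544 to 21489164, plus strand, GRCm38) and had 569, 441 and 572 counts in WT replicates 1, 2 and 3. In KO replicates 1, 2 and 3 it had 69, 66 and 106 counts. Every WT library was thus above every KO library, with a wide gap between the lowest WT count (441) and the highest KO count (106). Scaled by library total, the level was 30.6 ± 2.88 CPM in WT and 4.65 ± 0.910 CPM in KO (SD, n = 3 per group). The log2 fold change was -2.73 ± 0.18 (SE), 6.65-fold lower in KO, with adjusted p = 8.62e-05 (edgeR, over all tested genes), the third smallest p of the 13705. The members thus gave 1 call of 6 tested, beside 2.67% of all tested genes, and nothing is read from that share because Agtr2 was already known to differ.

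**Figure D1:**
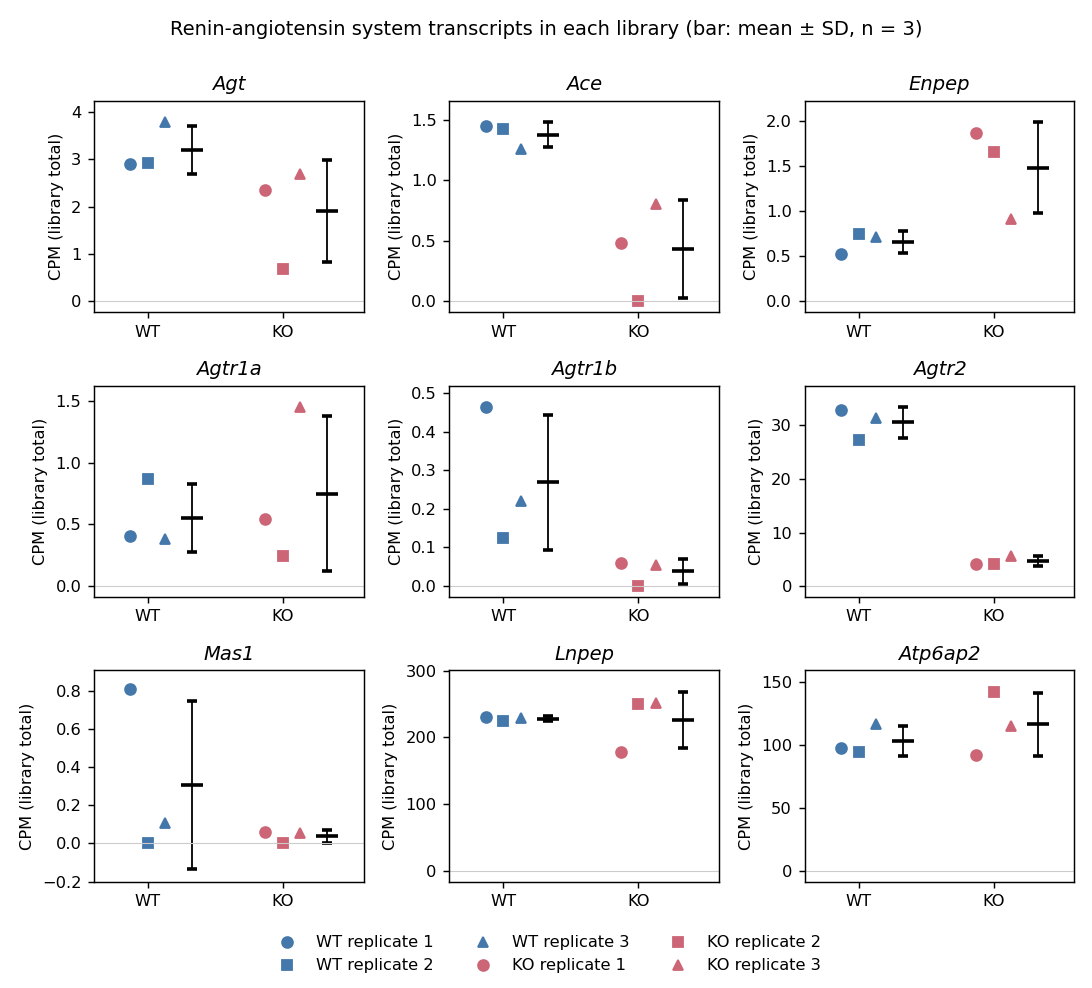
Level of each of the 9 renin-angiotensin genes in CPM by library total (y axis, separate scale per gene) in the 3 WT (blue) and 3 KO (red) libraries, with 1 symbol per replicate and the mean ± SD beside them. Agtr2 lies at 27.4 to 32.9 CPM in WT and 4.07 to 5.69 CPM in KO, while the WT and KO points of Lnpep, Atp6ap2, Agtr1a and Mas1 overlap.

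The change in Agtr2 did not rest on a single library. With each library left out in turn, the log2 fold change stayed between -2.91 and -2.65 and the adjusted p between 4.05e-08 and 0.00130 (edgeR). It was -2.65 ± 0.18 without KO replicate 2. The coefficient of variation was 9.41% among the WT libraries and 19.6% among the KO libraries, smaller than for any other member in the KO group apart from Lnpep at 18.4%. In KO, the highest value belonged to replicate 3.

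Macrophage transcripts were lower in the same KO libraries. All 9 macrophage markers (Adgre1, Csf1r, Cd68, Mrc1, Lyz2, C1qa, C1qb, Mpeg1 and Ptprc) were called lower, with a median log2 fold change of -2.02 against 0.02 over all tested genes, and 9 were also called without KO replicate 2, a check added after seeing the data. None of them was at 0 in any library. Their summed level was 322 to 374 CPM in WT and 81.9 to 92.9 CPM in KO. Set against that sum, Agtr2 amounted to 7.78% to 10.2% in the WT libraries and to 4.38% to 6.69% in the KO libraries. These ranges did not overlap, but they depend on which markers are summed. Lyz2 was the largest part of the sum, at 152 to 198 CPM in WT and 42.3 to 60.2 CPM in KO (-1.84 ± 0.16, SE). The log2 fold changes of the 9 markers ran from -2.61 (Mrc1) to -1.55 (Cd68). The part of macrophages in the Agtr2 difference was not tested. In bulk RNA, fewer cells of a type and less RNA per cell cannot be told apart.

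The pattern of Agtr2 over the 6 libraries was closest to that of 5 genes known from leukocytes. Likeness was measured as the root-mean-square distance between log2 CPM values, each centred on the gene's own mean, over 11355 tested genes whose mean level reached 2 CPM. Ms4a6b, a membrane protein of the CD20-like family, lay at a distance of 0.173, and the perforin-like gene Mpeg1 at 0.176. Adgre1, which encodes the macrophage antigen F4/80, followed at 0.204, the mannose receptor gene Mrc1 at 0.209 and the integrin beta chain gene Itgb2 at 0.228. The median distance of all candidates was 1.39. The measure takes in the step from WT to KO, and the 5 genes had log2 fold changes of -2.69 to -2.38. Within the groups some genes had the order of Agtr2 and others did not. On the TMM-scaled values, Agtr2, Ms4a6b and Mpeg1 were all lowest in KO replicate 2 and highest in KO replicate 3. Mrc1 and Itgb2 were highest in KO replicate 1. In WT, Agtr2 and Adgre1 were both lowest in replicate 2 and highest in replicate 1. By library total, however, Adgre1 was highest in WT replicate 3 (13.6 CPM, against 13.5 CPM in replicate 1). Ms4a6b was lowest in WT replicate 1 among the WT libraries.

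**Figure D2:**
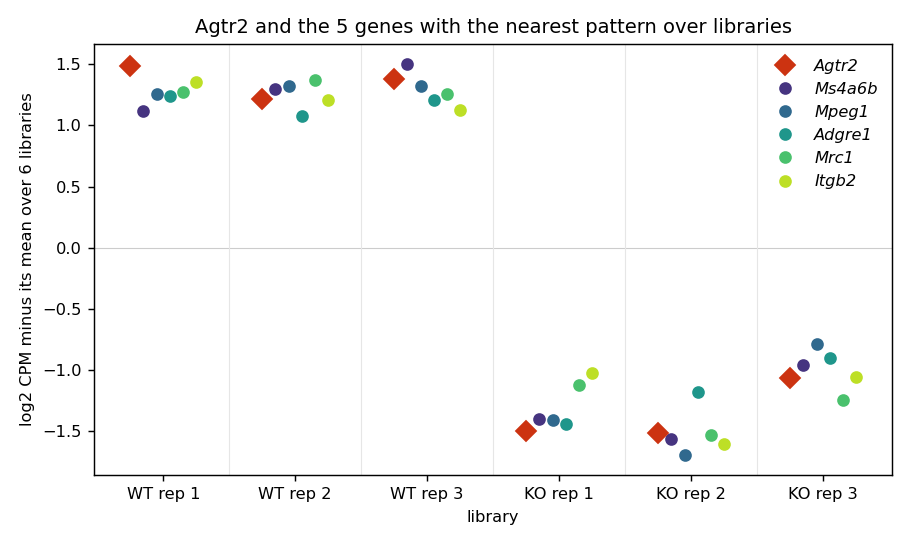
Centred log2 CPM (y axis, log2 scale, TMM-scaled with a prior count of 2) of Agtr2 (red diamonds) and of the 5 genes at the smallest distance from it (circles) in each of the 6 libraries (x axis). All 6 genes lie between 1.08 and 1.51 in the WT libraries and between -1.70 and -0.79 in the KO libraries.

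The type 1 receptor genes were close to the limit of detection. Agtr1a (chromosome 13, 30336441 to 30382867, plus strand) had 7, 14 and 7 counts in WT replicates 1 to 3 and 9, 4 and 27 in KO replicates 1 to 3. Its groups overlapped, with both the lowest and the highest value in KO. Agtr1b (chromosome 3, 20314473 to 20367177, minus strand) had 8, 2 and 4 counts in WT and 1, 0 and 1 in KO. It was at or below 3 counts in 4 of the 6 libraries, all 3 KO libraries among them, so a KO level was not measurable at this depth. Neither gene passed the filter on low counts. When that filter was left out, the log2 fold changes were 0.43 ± 0.76 (SE) for Agtr1a and -2.62 ± 1.76 for Agtr1b, with adjusted p = 0.825 and 0.556 (edgeR).

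The coding sequences of the type 1 receptor genes are near copies, so their counts may also be uncertain where reads match both. Over 1077 coding bases in GENCODE M21, Agtr1a and Agtr1b were identical at 978 (90.8%) and differed at 99, and the longest stretch without a difference was 66 bases. How reads that match both genes were counted is not known. The coding sequence of Agtr2 was far from both, at 50.2% identity over the aligned columns with Agtr1a and 50.4% with Agtr1b, and its longest stretch shared with Agtr1a was 11 bases. The first 120 coding bases, read 5′ to 3′ from the start codon, are shown for the near-identical pair, with capitals at the 8 positions where they differ.
Agtr1a (chr13:30380954-30381073, plus strand, GRCm38): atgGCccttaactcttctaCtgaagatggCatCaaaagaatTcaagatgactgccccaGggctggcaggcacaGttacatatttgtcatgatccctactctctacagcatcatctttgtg
Agtr1b (chr3:20316321-20316440, minus strand, GRCm38): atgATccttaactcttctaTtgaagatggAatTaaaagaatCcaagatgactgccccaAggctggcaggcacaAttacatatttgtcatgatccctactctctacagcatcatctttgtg

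Mas1, on chromosome 17 (12841079 to 12868143, minus strand), encodes the receptor proposed for the heptapeptide that opposes angiotensin II. It had 14, 0 and 2 counts in WT and 1, 0 and 1 in KO. WT replicate 1 held 14 of the 16 WT counts, and the other 5 libraries were at or below 3 counts, so Mas1 was below detection outside that library. The antisense gene Airn overlaps Mas1 and had 42, 51 and 44 counts in WT and 23, 31 and 56 in KO. Since strand is not stated to be kept, reads of Airn and Mas1 where they overlap cannot be told apart, and the Mas1 counts are uncertain. Gm24085, which also overlaps Mas1, had 0 counts. Without the filter the log2 fold change of Mas1 was -2.81 ± 1.69 (SE, adjusted p = 0.504, edgeR).

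Compared per length, Agtr2 was the main angiotensin receptor transcript in both groups. Its level as CPM divided by the deposited gene length in kilobases (CPM per kb) was 26.4 to 68.4 times that of Agtr1a in the WT libraries and 3.29 to 13.8 times in the KO libraries. Of the summed level of Agtr1a, Agtr1b and Agtr2, Agtr2 made up 95.7% to 97.5% in WT and 75.8% to 93.3% in KO. The ratios to Agtr1a rest on 4 to 27 counts of Agtr1a per library. Neither measure overlapped between WT and KO, but Agtr2 enters both, so their separation carries its fall and is no separate result. The lowest of both belonged to KO replicate 3, which had the highest Agtr1a count.

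Agt, the gene of the precursor angiotensinogen, was expressed at a low level. It lies on chromosome 8 (124556534 to 124569706, minus strand) and had 50, 47 and 69 counts in WT replicates 1 to 3 and 39, 11 and 50 in KO. By CPM the groups just missed each other, at 2.90 to 3.78 in WT and 0.678 to 2.69 in KO, and KO replicate 2 was far below the other KO libraries. The log2 fold change of -0.76 ± 0.44 (SE) did not pass the test (adjusted p = 0.452, edgeR). Without KO replicate 2 it was -0.37 ± 0.32.

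Ace, the gene of angiotensin-converting enzyme, is known from endothelium and from macrophages. It lies on chromosome 11 (105967945 to 105989964, plus strand), with 25, 23 and 23 counts in WT and 8, 0 and 15 in KO. All WT libraries were above all KO libraries. The difference, a log2 fold change of -1.66 ± 0.75 (SE), did not pass the test (adjusted p = 0.348, edgeR), and without KO replicate 2, where no read was counted, it was -1.10 ± 0.53. A count of 10 or more was reached in 3 WT libraries and 1 KO library, so Ace entered the test mainly through the group where it was higher. Beside it, the 8 endothelial markers summed to 3.40 to 5.77 CPM in WT and 0.740 to 3.33 CPM in KO. Most of the WT sum came from Kdr, at 2.69 to 3.97 CPM in WT and 0.616 to 2.26 CPM in KO. Emcn had 2, 6 and 3 counts in WT and 17, 2 and 0 in KO. The defining endothelial genes Cdh5 and Pecam1 had 0 to 6 and 0 to 7 counts and were both at 0 in KO replicates 2 and 3 and WT replicate 3, while Cldn5 was at 0 in all libraries except KO replicate 3. Only Kdr was tested (-1.23 ± 0.45, adjusted p = 0.241, edgeR). The macrophage markers were lower in the same KO libraries, as given above, and the part of either cell type in the Ace values was not tested.

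Enpep, which encodes aminopeptidase A, the enzyme that turns angiotensin II into angiotensin III, had higher values in KO. It lies on chromosome 3 (129269175 to 129332720, minus strand) and had 9, 12 and 13 counts in WT and 31, 27 and 17 in KO. Each KO library was above each WT library, at 0.659 ± 0.121 CPM in WT and 1.48 ± 0.506 CPM in KO (SD, n = 3 per group). A count of 10 or more was reached in 2 WT and 3 KO libraries. The log2 fold change of 1.14 ± 0.48 (SE) did not pass the test (adjusted p = 0.314, edgeR). Without KO replicate 2 it was 1.04 ± 0.55. Pericytes are a known source of Enpep. Of their 7 markers 5 were tested and Rgs5 was called higher (1.14 ± 0.21, adjusted p = 0.0168, edgeR), with 2 markers called without KO replicate 2, while Mcam (0.52 ± 0.15), Cspg4 (-0.41 ± 0.17), Notch3 (-0.34 ± 0.17) and Des (-0.79 ± 0.40) did not pass and had values of both signs. The summed pericyte level was 173 to 236 CPM in WT and 153 to 190 CPM in KO, and Kcnj8 and Abcc9 had 0 to 3 counts per library. The part of pericytes in the Enpep values was not tested.

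Lnpep and Atp6ap2 were the abundant members and had small fold changes. Lnpep (chromosome 17, 17521410 to 17625050, minus strand) encodes the insulin-regulated aminopeptidase, which binds angiotensin IV and also cuts oxytocin and vasopressin. It had 3981, 3614 and 4185 counts in WT and 2949, 4061 and 4673 in KO. The KO libraries lay on both sides of the WT range, and the log2 fold change was -0.03 ± 0.14 (SE, adjusted p = 0.934, edgeR). Atp6ap2 (chromosome X, 12587801 to 12617049, plus strand) encodes the prorenin receptor, which is also an accessory subunit of the vacuolar proton pump. Its counts were 1692, 1527 and 2126 in WT and 1526, 2310 and 2150 in KO. The groups overlapped, the log2 fold change was 0.16 ± 0.16 (SE, adjusted p = 0.642, edgeR), and without KO replicate 2 it was -0.01 ± 0.12. Differences of the size of these SEs could not be resolved.

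The order of the members per length was led by these last genes. In WT, Atp6ap2 stood at 39.4 ± 4.49 CPM per kb, Lnpep at 16.1 ± 0.236, Agtr2 at 9.19 ± 0.865 and Agt at 1.69 ± 0.268 (SD, n = 3), and these 4 ranges did not overlap. Ace (0.261), Agtr1a (0.198), Enpep (0.140), Agtr1b (0.125) and Mas1 (0.117) followed, and the range of each of these 5 overlapped that of the next in order. In KO, Atp6ap2 (44.6 ± 9.57 CPM per kb) and Lnpep (12.6 to 17.7) were again highest, but Agtr2 (1.40 ± 0.274) then overlapped Agt (1.01 ± 0.570). Enpep (0.315 CPM per kb) stood above Ace (0.0813) in KO with ranges that did not overlap, the reverse of their order in WT.

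**Figure D3:**
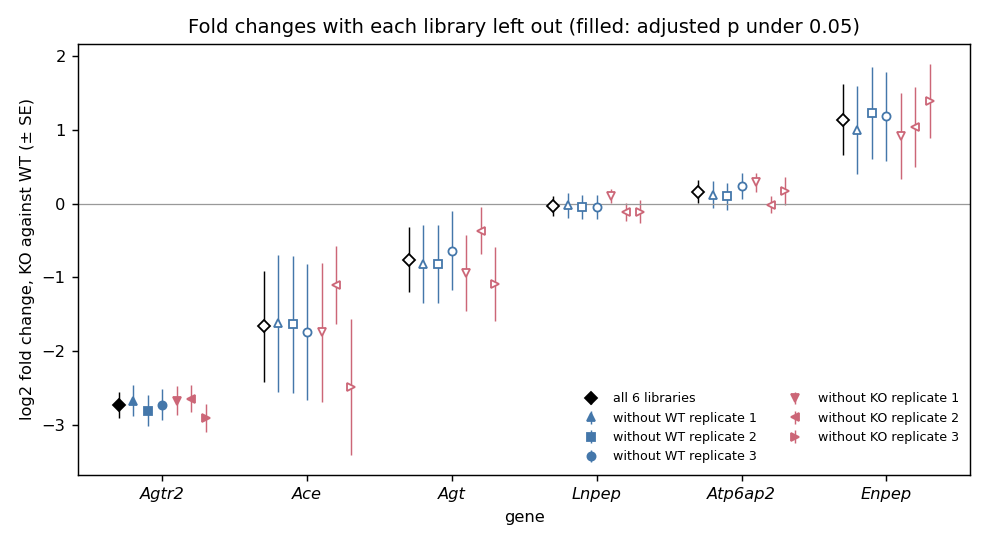
Log2 fold change of KO against WT with its SE (y axis) for the 6 tested members (x axis), from all 6 libraries (black) and with each library left out in turn (blue for WT, red for KO). Filled symbols mark an adjusted p under 0.05 and are seen for Agtr2 alone, between -2.91 and -2.65, while Lnpep and Atp6ap2 lie on either side of 0.

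Of the 6 tested members, 4 had groups that did not overlap in CPM (Agt, Ace, Enpep and Agtr2), where 20.9% of all tested genes did. The members were picked with this comparison known, and nothing is read from the share. Their median log2 fold change was -0.39, over the 6 that passed the filter and not over all 9.

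Other genes of the pathway were not called. Of a list of 22 further genes, 21 had a row (Ren2 had none), 13 were tested, 11 of the 13 had a negative log2 fold change, and their median was -0.16 against 0.02 over all tested genes. None was called by edgeR, DESeq2 or limma-voom, while 3 had an unadjusted p under 0.05 with edgeR. The smallest p belonged to Zbtb16, a zinc-finger transcription factor reported to bind the type 2 receptor, at -0.57 ± 0.17 (SE, adjusted p = 0.146, edgeR). Its counts were 661, 613 and 516 in WT and 428, 313 and 493 in KO. Without the filter on low counts Zbtb16 was called lower (adjusted p = 0.0147, edgeR). Anpep, aminopeptidase N, which cuts angiotensin III, followed at -0.76 ± 0.28 (adjusted p = 0.243, edgeR), with 151 to 168 counts in the WT libraries against 55 to 133 in KO. Mtus1, which encodes a protein that interacts with the type 2 receptor, had 108 to 122 counts in the WT libraries against 62 to 87 in KO (-0.59 ± 0.23, adjusted p = 0.265, edgeR).

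Renin and the alternative enzymes that make angiotensin II were not detected. Ren1, the chymase genes Cma1 and Mcpt4 and the cathepsin G gene Ctsg had 0 counts in every library, as had the receptor gene Mrgprd, which allows up to 0.186 CPM in the shallowest library. The tissue kallikrein gene Klk1 had 1 count in all, and the mast cell carboxypeptidase gene Cpa3 had 3. Genes of wider use were well covered. The aspartic protease gene Ctsd, whose product can cut angiotensinogen in the test tube, had 11701 to 16010 counts (-0.16 ± 0.11, SE), and the oligopeptidase genes Prep, Thop1 and Nln and the neprilysin gene Mme, which make the heptapeptide, had values of -0.22, -0.00, 0.02 and -0.01.

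**Figure D4:**
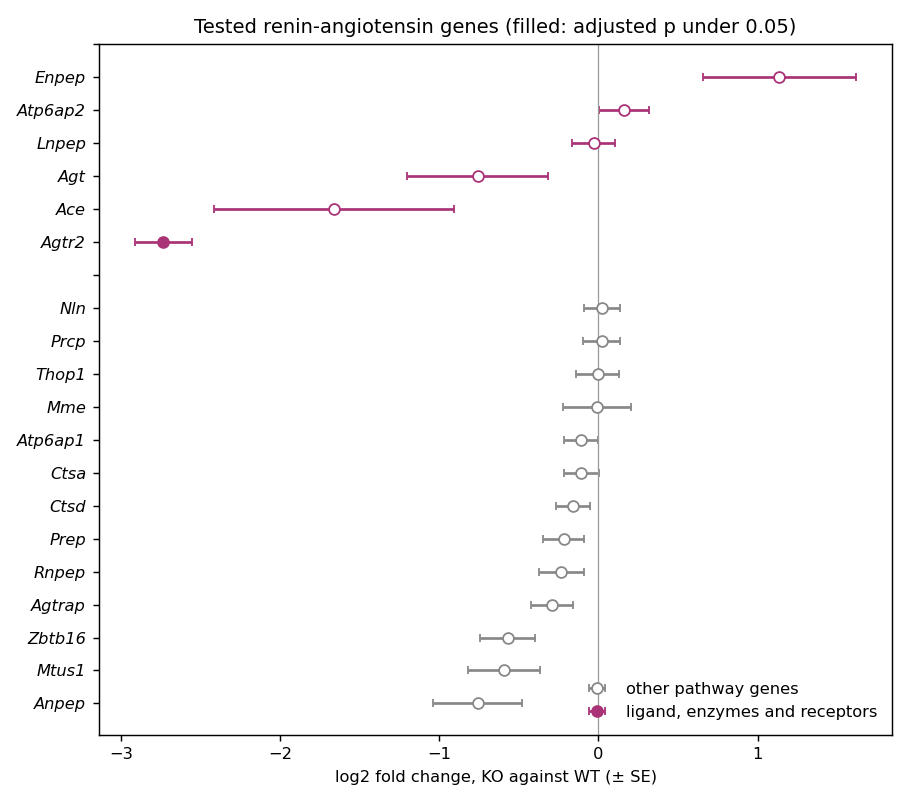
Log2 fold change of KO against WT with its SE (x axis) for the 6 tested members (purple) and the 13 tested further genes of the pathway (grey). A filled symbol marks an adjusted p under 0.05 and is seen for Agtr2 alone, at -2.73, while the grey genes lie between -0.76 and 0.02.

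Among 16 genes that carry the receptors' signals, Grk5 and Ptpn6 were called lower (2 of 16, beside 2.31% of all tested genes) and 12 had a negative value, with a median of -0.08 against 0.02 over all tested genes. Grk5, a kinase that silences G-protein-coupled receptors, had 1100, 1014 and 1245 counts in WT and 793, 750 and 807 in KO (-0.52 ± 0.11, SE, adjusted p = 0.0275, edgeR). Ptpn6 encodes SHP-1, a phosphatase of blood cells that has been linked to the type 2 receptor, and had 36, 34 and 61 counts in WT and 2, 5 and 13 in KO (-2.71 ± 0.57, adjusted p = 0.0319, edgeR). With these counts, Ptpn6 entered the test mainly through the WT libraries, where it was higher. For both genes the groups did not overlap, as for 20.9% of all tested genes. With single libraries left out the log2 fold changes stayed at -0.57 to -0.48 for Grk5 and -3.53 to -2.32 for Ptpn6, but some calls were lost. The Grk5 call was lost when WT replicate 1, 2 or 3 or KO replicate 3 was left out, with adjusted p between 0.109 and 0.150 (edgeR). For Ptpn6 the same held for WT replicates 1, 2 and 3 and KO replicate 1, with adjusted p reaching 0.154 (edgeR). Leaving out 1 WT library also lowered the calls over all genes, from 366 to between 147 and 211. Macrophages express Ptpn6, the macrophage markers were lower in the same libraries, and their part in its value was not tested. The G protein genes Gnaq (-0.08 ± 0.11) and Gna11 (-0.20 ± 0.15), through which the type 1 receptors act, did not pass.

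Genes that angiotensin II induces in fibroblasts and muscle were not called. All 10 were tested, their median was -0.01, and 5 had a negative value. Ccn2, the gene of connective tissue growth factor, is in the table under its older symbol Ctgf, matched by gene identifier, and had 61272 to 73439 counts in the WT libraries against 67141 to 87626 in KO (0.16 ± 0.10). With edgeR, DESeq2 and limma-voom 0 were called, and 2 had an unadjusted p under 0.05 with edgeR. These were Thbs1, which encodes thrombospondin (-0.29 ± 0.11, adjusted p = 0.255, edgeR), and Hbegf, a growth factor gene (0.31 ± 0.12, adjusted p = 0.258).

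The hormone arms beside the pathway gave 0 calls with any of the 3 tools. For aldosterone, 2 of 4 genes were tested. Hsd11b2, which shields the mineralocorticoid receptor from glucocorticoids, had 22, 13 and 14 counts in WT and 8, 3 and 8 in KO (-1.37 ± 0.58, SE, unadjusted p = 0.0393, adjusted p = 0.314, edgeR). No KO library reached 10 counts, so Hsd11b2 entered the test through the group where it was higher. Sgk1, a kinase that aldosterone and glucocorticoids induce, was at 0.15 ± 0.10 (adjusted p = 0.487, edgeR). The receptor gene Nr3c2 had 0 to 16 counts and the synthase gene Cyp11b2 0. For the kinins, peptides that angiotensin-converting enzyme breaks down, the receptor genes Bdkrb1 (-0.22 ± 0.33) and Bdkrb2 (-0.38 ± 0.34) were the 2 of 4 tested, neither with an unadjusted p under 0.05, and the precursor genes Kng1 and Kng2 had 0 to 2 counts.

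No tested gene near Agtr2 on chromosome X was called with edgeR. Of 47 genes within 1 Mb, 26 had no count in any library and 16 were tested, of which edgeR called 0, limma-voom 0 and DESeq2 1, and 3 had an unadjusted p under 0.05 with edgeR. Cfp, properdin of the complement system, had a mean of 4.83 CPM in WT and 2.44 CPM in KO (adjusted p = 0.111, edgeR). Timp1, an inhibitor of matrix metalloproteinases, had 8314, 8623 and 11273 counts in the WT replicates and 11265, 14211 and 11045 in the KO replicates (0.38 ± 0.15, adjusted p = 0.295, edgeR). No gene of the table overlapped Agtr2. The genes that overlapped Ace, Enpep and Agtr1a (Gm11651, Gm42628 and Gm48161) had 0 counts in every library, and AC121795.2, within Lnpep, had 2 counts in WT replicate 3 alone.

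The stretch before Agtr2 is shown because Agtr2 is the member that was called. RefSeq (GRCm38.p6) places its start at 21484624, which is 80 bases after the start in the deposited table, and the 170 bases before the deposited start are printed in lower case with the match to the CCAAT box in capitals (found as its reverse complement).
Agtr2 upstream (chrX:21484374-21484543, plus strand, GRCm38.p6): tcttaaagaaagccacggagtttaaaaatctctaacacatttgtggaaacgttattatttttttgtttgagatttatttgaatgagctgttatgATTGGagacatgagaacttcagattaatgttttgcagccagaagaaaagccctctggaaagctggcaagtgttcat

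The 250 bases before the RefSeq start were searched on both strands for 4 motifs. For Agtr2 they held TATANA (the TATA box) at 28 to 23 bases before that start and CCAAT at 156 to 152 bases before it, and no match to GGGCGG (the GC box) or TGANTCA (the AP-1 site), and these matches did not overlap. The TATANA match lies after the deposited start, inside the gene as counted, and so outside the 170 printed bases. Of 32851 mouse promoter windows of that length, 22.6% held TATANA, 33.8% CCAAT, 32.7% GGGCGG and 6.75% TGANTCA. RefSeq promoters were matched for 8 members, all except Agtr1a. TATANA was found for 5 of them (Ace, Agt, Agtr1b, Agtr2 and Enpep), CCAAT for 6 (Ace, Agtr1b, Agtr2, Atp6ap2, Enpep and Mas1), GGGCGG for 3 (Ace, Atp6ap2 and Lnpep) and TGANTCA for 0. The abundant genes Atp6ap2 and Lnpep thus had the GC box without the TATA box. A match of letters is a description and no evidence of binding.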

How the data were processed

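The authors deposited 1 table of whole-number counts per gene, not normalized, for 6 libraries. It also gives a gene length in bases (another kind of number), used here only for levels per kilobase. Per the labels' protocols, TRIzol was used to extract RNA and an NEBNext Ultra RNA kit to build libraries, and strand is not stated to be kept. HISAT2, StringTie, SAMtools and mm9 are listed per the submitters' processing notes, without versions or roles, and what counted the reads is not stated. GENCODE M21 shared 54409 identifiers with the table and placed 98.3% of them identically, all 9 members included, so positions are GRCm38. Columns were matched to sample titles by genotype and replicate number, and they add an unexplained word, Ctrl.

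The test was edgeR 4.0.16 in R 4.3.3 (quasi-likelihood, robust, TMM scaling, genotype as the only term), with genes kept by filterByExpr (minimum count 10, total 15) and Benjamini-Hochberg adjustment over 13705 genes at 0.05. Standard errors were taken as the size of the log2 fold change over the root of its F statistic. CPM values use library totals, without TMM, except the log2 CPM behind the likeness of patterns, which is TMM-scaled. DESeq2 1.42.0 and limma-voom (limma 3.58.1) were alternatives, with other scalings, filters, a replicate block and each library left out. The test was checked on simulated counts. With 3 against 3 libraries an exact permutation test of a single gene cannot go below p = 0.1, so genes rest on the fit across all genes.

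Members and lists were chosen with earlier results of these data known. Text names all members, called genes and the 2 smallest p of each list, and the 5 genes nearest in pattern to each called member (leaving out symbols of predicted genes); other genes are named as list members or neighbours. Some members of the lists are not reported here.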

Additional observations from a re-analysis of the deposited data

How the results depend on the processing

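Agtr2 was called lower in all 16 alternatives, with a log2 fold change between -2.91 and -2.65, and no other tested member was called in any. Ace kept its direction from -2.52 to -1.10 and Enpep from 0.92 to 1.40, as did Agt from -1.09 to -0.37, where the value nearest 0 is without KO replicate 2. With single libraries left out Lnpep ranged from -0.11 to 0.10 (above 0 without KO replicate 1) and Atp6ap2 from -0.013 to 0.29 (below 0 without KO replicate 2), and the cause was not tested. Over all genes, calls numbered 883 without the filter on low counts (258 higher, 625 lower, against 50 and 316), 656 with DESeq2 (123 higher, 533 lower), and 147 to 610 with single libraries left out. Without that filter 1 further gene of the pathway, Zbtb16, was called. Receptor signalling genes called numbered 0 to 2 with single libraries left out, and 1 with the replicate number as a block (Grk5 lost, adjusted p = 0.0786, edgeR); these alternatives were applied to this list after its values were seen. Whether the replicate numbers pair the libraries is not known. Same-numbered deviations correlated at 0.14, -0.11 and -0.19 over genes, which are not independent, and 3 libraries per group cannot settle it. The block gave 331 calls over all genes and -2.74 for Agtr2. Ordered by CPM instead of per length, 7 of the 9 members changed place, with Lnpep above Atp6ap2. Depth limits Agtr1b and Mas1, at or below 3 counts in 4 and 5 libraries.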
